A study of Mus musculus with 4 samples.

Results

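The genes described here encode the proteins of the cytosolic ribosome, measured in the lens of mice without S100A4 and in wild type (WT) lenses. They were chosen by name alone, as rows of the expression table whose symbol is Rpl or Rps with a number, Rplp0 to Rplp2 or Rpsa, with symbols marked as pseudogenes (-ps) left out. This gave 78 of the 14924 genes in the table, 46 of the large subunit and 32 of the small subunit. In the mouse annotation 89 names matched, and the other 11 (Rpl10l, Rpl23a, Rpl24, Rpl32l, Rpl39l, Rpl3l, Rpl6l, Rps12l1, Rps27, Rps3a2 and Rps3a3) were not analysed here. There were 4 poly(A) RNA-seq libraries, 2 of S100A4 null (S100A4-/-) lenses and 2 of WT littermate lenses, all of 1-month-old mice on a C57BL/6J background, and each library was a pool of 6 to 12 whole lenses. S100A4 is a calcium-binding protein of lens fiber cells, and the null allele is carried by every cell of the animal. The depth, as recovered from the table, was 81602367 and 74108017 reads for the S100A4-/- pools and 70253985 and 68038158 reads for the WT pools. Values are read counts scaled by the depth factors of DESeq2, so that a read was worth between 0.856 and 1.09 depending on the library. Each library is a separate pool of lenses, and p-values measure the spread between such pools.

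The deleted gene was checked first. S100a4 had values of 14.6 and 18.2 in S100A4-/- lenses against 14420 and 14385 in WT lenses, as the labels state. RNA of lens fiber cells was abundant in all 4 libraries: the fiber markers, led by the αA-crystallin gene Cryaa, summed to 22564500 and 24176000 in S100A4-/- and 24184200 and 24345800 in WT.

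A cytosolic ribosome holds a single copy of nearly every ribosomal protein in its small and large subunits, and the stalk proteins P1 and P2 are present in more than a single copy. The mRNAs of ribosomal proteins start with a terminal oligopyrimidine (TOP) tract and are translated together when the kinase mTOR is active, while their genes are transcribed at high levels in most cells. In the lens, new protein is made in the epithelium and in young fibers, and mature fibers lose their nuclei and ribosomes. The mouse genome holds many processed pseudogenes of these genes, which are reverse-transcribed copies with nearly the same sequence.

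The sequence shared with such copies has to be shown before the values. The libraries were read as single reads of 50 bases, and only reads with a single place in the genome were counted by the authors. Each stretch of 50 bases in the reference transcript of a gene (GENCODE M21, GRCm38) was therefore searched for in the transcripts of all other annotated genes, pseudogenes included, on both strands. The first 50 coding bases of 8 genes are printed here, since they show members with the highest and the lowest values beside members that differed between the groups. Capitals mark the bases that differ from the closest stretch found in a transcript of another gene.

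Rps3: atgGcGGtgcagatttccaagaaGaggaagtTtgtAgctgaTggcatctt
Rpl8: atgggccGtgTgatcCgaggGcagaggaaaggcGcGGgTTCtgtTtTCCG
Rplp1: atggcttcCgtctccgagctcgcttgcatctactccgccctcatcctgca
Rps25: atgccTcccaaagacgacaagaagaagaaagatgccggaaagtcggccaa
Rpl39: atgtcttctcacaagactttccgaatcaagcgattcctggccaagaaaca
Rps16: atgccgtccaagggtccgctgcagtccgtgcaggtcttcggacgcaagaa
Rpl9: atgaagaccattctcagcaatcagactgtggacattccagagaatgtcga
Rps23: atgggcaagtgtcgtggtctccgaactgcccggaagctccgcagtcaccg

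Rps3 and Rpl8 differed from the closest other transcript at 7 and 15 of these 50 bases. Rplp1 and Rps25 differed at 1 base each, from the transcripts of Gm10073 and the pseudogene Gm4963. Rpl39, Rps16, Rpl9 and Rps23 did not differ at any base, and this stretch was found in 4, 1, 5 and 6 other annotated genes. Over the whole coding part, the share of 50-base windows found in no transcript of another gene was 91.9% for Rps3, 91.3% for Rpl8 and 79.7% for Rpl4. There were 26 members without any such coding window, Rps16, Rps13, Rpl9, Rps23 and Rps29 among them, so that a read from the coding part of these genes could not be placed on them alone. Rps4l is annotated as a transcribed pseudogene in this release and has no coding part there, which leaves 77 members with a value. The search covered annotated transcripts and not the whole genome.

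The levels of the members in WT lens spanned 5.29 to 55132 per kilobase of exon, although their proteins are needed in nearly equal numbers. Rplp1, which encodes the P1 protein of the stalk that recruits elongation factors, was at the top with 55132 ± 744 per kilobase (SD, n = 2 libraries, as for the levels that follow). Other members at the high end were Rps3 with 27074 ± 1174, Rpl4 with 24785 ± 173 and Rpl8 with 24671 ± 384 per kilobase. Rps3 encodes a protein of the small subunit along the path of the mRNA, while Rpl4 lines the exit tunnel and Rpl8 lies near the peptidyl transferase center. The WT libraries of Rps3 (27904 and 26244) lay above both of Rpl4 and both of Rpl8, whereas the value of Rpl8 in a WT library (24943) lay above both values of Rpl4 (24663 and 24907).

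At the low end, Rps16 had 5.29 ± 0.504 per kilobase, Rps13 5.70 ± 5.82, Rpl9 12.5 ± 0.686, Rps23 19.7 ± 14.7 and Rps29 21.5 ± 22.5 per kilobase. Before division by length, Rps16 had values of 6.26 and 5.47 in the WT libraries, which is a handful of reads for a protein of every ribosome. The WT libraries of Rps13 (13.6 and 2.19) and Rps29 (14.6 and 2.19) differed from each other by several fold. All 5 of these genes had no coding window of their own. Where reads are counted only if they map to a single locus, such a value holds only the reads that fit this gene alone.

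This was a general feature of the family. Members with no unique coding window had a median WT level of 127 per kilobase (26 genes), members with over 0 and under 50% unique windows 2422 (38 genes), and members with at least 50% unique windows 20691 (13 genes). Across the 77 genes with a coding part, Spearman's rho between the share of unique coding windows and the WT level per kilobase was 0.84, as a description over genes that share the same libraries and reads. Among the members far from their group were Rpl41, with no unique coding window and 12441 ± 856 per kilobase, and Rpl7l1, with 78.1% unique coding windows and 291 per kilobase. Rpl41 encodes the smallest ribosomal protein, with a coding part of 75 bases in a transcript with longer ends, and Rpl7l1 encodes a nucleolar relative of Rpl7. Dividing the WT value by the number of unique windows of the whole transcript did not narrow the spread. Over the 70 members with at least 100 such windows, the upper quartile was 22.1 times the lower quartile on this scale and 19.1 times per kilobase of exon.

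**Figure D1:**
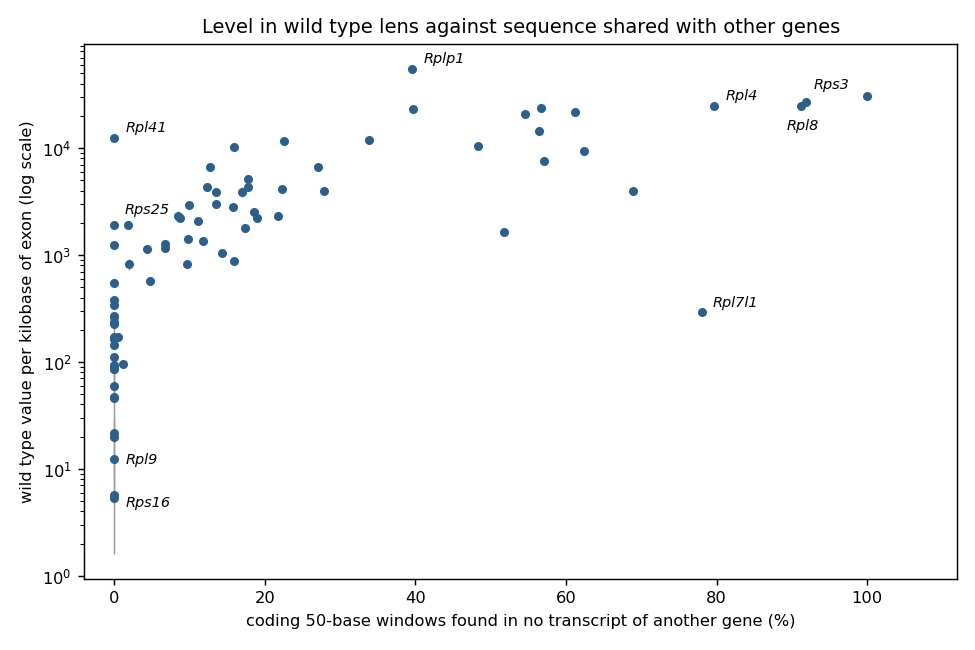
Mean WT value per kilobase of exon (log scale) against the percentage of coding 50-base windows found in no transcript of another gene, for 77 ribosomal protein genes; grey lines join the 2 WT libraries. The 26 genes at 0% have a median of 127 per kilobase and the 13 genes at 50% or more a median of 20691, with Rpl41 and Rpl7l1 apart from the rest.

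The question put to the comparison of S100A4-/- and WT lenses was whether these genes shift together. Their median log2 fold change was -0.060, a change of -4.06%, beside -0.0052 for all 14780 genes tested. The log2 fold change was below 0 for 61 of the 78 genes, and 51.2% of all genes tested lay below 0. The quartiles of the members were -0.11 and -0.010. All 78 passed the filter on low values, a value of at least 10 in any library. The large subunit genes had a median of -0.065 (37 of 46 below 0) and the small subunit genes a median of -0.041 (24 of 32 below 0).

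With limma over all genes tested and a Benjamini-Hochberg adjusted p of at most 0.05, 4 members were lower in S100A4-/- lenses and 0 were higher. The background was 1.33% of all genes lower and 5.62% higher, and among the 3603 genes averaging at least 1000, the level of all 4 called members, it was 3.64% lower and 3.11% higher. Of the members at that level, 4 of 46 were called lower. At an unadjusted p under 0.05, 16 members were lower and 1 higher, against 6.71% and 11.0% of all genes, and on the recovered reads edgeR called 4 lower (1.22% of all genes) and DESeq2 2 lower (Rplp1 and Rps15, beside 0.609% of all genes), with 0 higher in both, where 5.81% and 3.86% of all genes were called higher. Limma without a trend of the variance called 0 members. No member passed the threshold of the study, a 2-fold change with an adjusted p of at most 0.05, which 0.0744% of all genes passed downward and 3.65% upward. Both S100A4-/- values lay below both WT values for 29 members and above them for 5, against 23.2% and 23.7% of all genes. At an average of at least 1000, these counts were 20 and 1 of the 46 members, against 1252 and 539 of the 3603 genes. At that level and an unadjusted p under 0.05, 13 members were lower and 1 higher, against 469 and 209 of the 3603 genes.

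**Figure D2:**
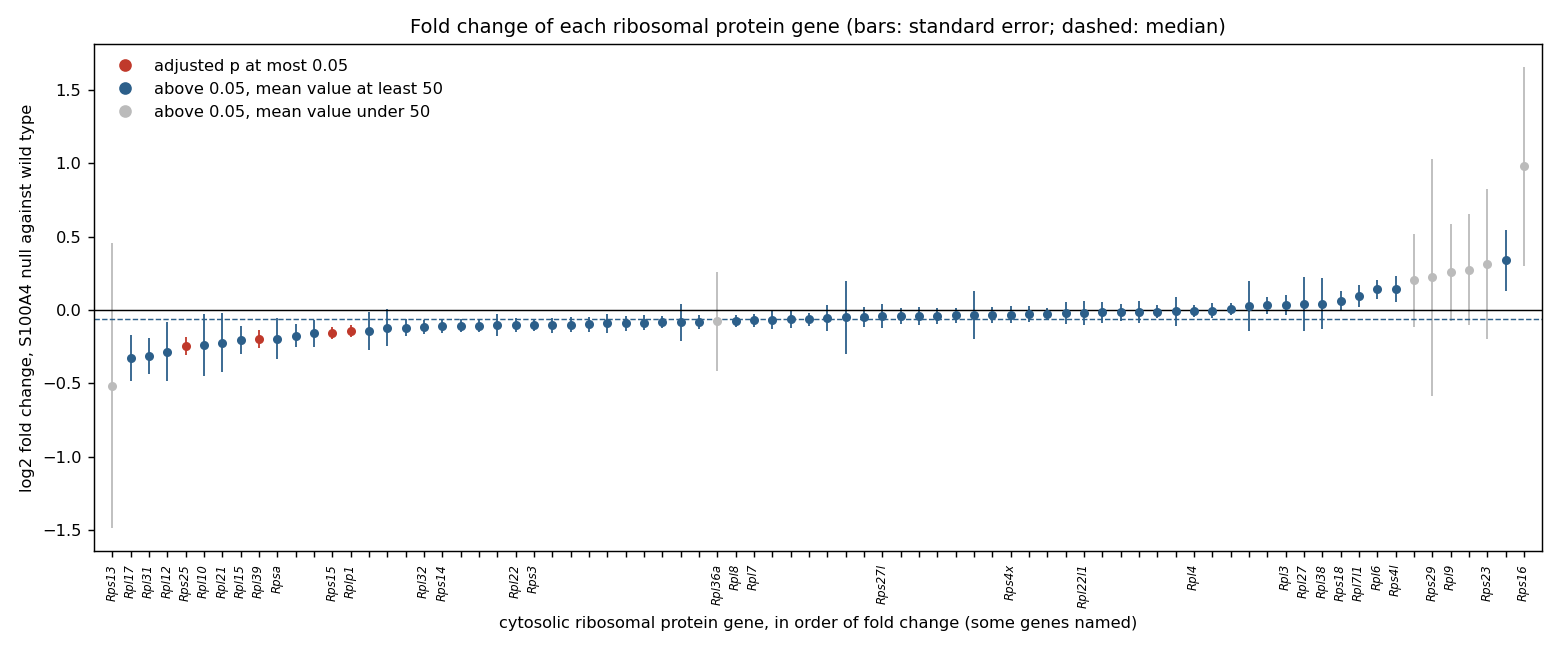
Log2 fold change of S100A4-/- against WT lenses for each of the 78 ribosomal protein genes (points, with the standard error as bars), in order, with some of the genes named; the dashed line is their median of -0.060. The 4 genes past an adjusted p of 0.05 are red and all lie below 0, and the widest bars belong to the 8 genes with a mean value under 50, in grey.

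The 4 genes that fell encode proteins of both subunits, and in these bulk samples fewer cells of a type and less RNA per cell cannot be told apart. Rps25, a small subunit protein known for its part in initiation at viral internal ribosome entry sites, had values of 2384 and 2043 in S100A4-/- and 2587 and 2645 in WT lenses. The groups did not overlap, although the S100A4-/- libraries lay further from each other than 1 of them from WT. Rps25 fell by 0.25 on the log2 scale (SE 0.06, adjusted p = 0.00861 by limma), a change of -15.6%, and is on chromosome 9 (chr9:44407139-44410427, GRCm38, plus strand, 5 exons). Its log2 fold change lay between -0.36 and -0.13 when a library was left out. Only 1.84% of its coding windows were unique, against 73.8% of the windows of its whole transcript, and it shared windows with 8 pseudogenes.

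Rps15, a protein of the head of the small subunit, had values of 13155 and 13810 in S100A4-/- and 15029 and 15032 in WT lenses. Every S100A4-/- value was below every WT value, and the fall was 0.16 on the log2 scale (SE 0.04, adjusted p = 0.0156 by limma). The gene lies on chromosome 10 (chr10:80292453-80294114, plus strand, 4 exons).

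Rplp1, the member with the highest WT level per kilobase, had values of 24789 and 24988 in S100A4-/- and 27248 and 27773 in WT. Its replicates were close within both groups, and it fell by 0.14 on the log2 scale (SE 0.04, adjusted p = 0.0193 by limma), which is -9.53%. It lies on chromosome 9 (chr9:61913284-61914542, minus strand, 3 exons). The partners of P1 in the stalk did not follow it past the threshold. Rplp2 had a log2 fold change of -0.065 (adjusted p = 0.508 by limma), and Rplp0, which anchors the stalk, had values of 31297 and 32307 in S100A4-/- and 31646 and 31715 in WT and a log2 fold change of 0.0053.

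Rpl39, which lines the exit tunnel of the large subunit, had values of 2045 and 2076 in S100A4-/- and 2463 and 2269 in WT. The groups did not overlap, and it fell by 0.20 on the log2 scale (SE 0.06, adjusted p = 0.0340 by limma). The gene is on chromosome X (chrX:37082520-37085402, minus strand, 3 exons). As shown above, the start of its coding part is shared with 4 other genes, and 13.5% of its coding windows were unique.

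Among members averaging at least 100 over the 4 libraries, the largest negative values were those of Rpl17 (-0.33), Rpl31 (-0.31), Rpl12 (-0.28), Rps25, Rpl21 (-0.22), Rpl15 (-0.20), Rpl39 and Rpsa (-0.20), as log2 fold changes. Of these, only Rps25 and Rpl39 passed the test, and the other 6 had adjusted p-values by limma between 0.138 for Rpl31 and 0.626 for Rpl21. The values of these 6 were low beside those of the 4 called genes. Rpl21, for example, had values of 84.8 and 109 in S100A4-/- and 115 and 111 in WT, and its first 50 coding bases occur in 18 other annotated genes. Rpl31, Rpl32, Rps14 and Rps3 came next to the 4 called genes by p, with log2 fold changes of -0.31, -0.12, -0.11 and -0.10 and adjusted p-values of 0.138, 0.140, 0.141 and 0.142 by limma. Rps3 had values of 48458 and 47640 in S100A4-/- against 53241 and 50073 in WT, which do not overlap, but the WT pools differed from each other by more than the lower of them differed from S100A4-/-.

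The largest positive values at that level were small, and none passed the test. Among them were those of Rps4l (0.14), Rpl6 (0.14), Rpl7l1 (0.093), Rps18 (0.064), Rpl38 (0.043), Rpl27 (0.039) and Rpl3 (0.033), as log2 fold changes. Rpl6, a large subunit protein, had values of 1601 and 1669 in S100A4-/- and 1479 and 1490 in WT, so that the groups did not overlap (adjusted p = 0.237 by limma). Rps4l and Rpl7l1 are relatives of ribosomal protein genes and not standard parts of the ribosome. Rpl4, also among the abundant members, had a small difference, with 38032 and 37790 in S100A4-/- and 37931 and 38306 in WT (log2 fold change -0.0079). Rpl8 had 23680 and 25239 against 26040 and 25473 (-0.075), without overlap between the groups and without passing the test.

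At the low end the fold changes are not informative. Rps16 had a log2 fold change of 0.98 with values of 15.4 and 10.1 in S100A4-/- and 6.26 and 5.47 in WT, and an adjusted p of 0.489 by limma. Rps13 had -0.52 (SE 0.97), Rps23 0.31 (SE 0.51), Rps29 0.22 (SE 0.81) and Rpl9 0.26 (SE 0.33). The median log2 fold change of the 8 members with a mean value under 50 was 0.24, and that of the 46 members averaging at least 1000 was -0.071, beside -0.030 for the 3603 genes of all kinds at that level. The median log2 fold change was -0.053 for members with no unique coding window, -0.056 for those with fewer than 50% and -0.084 for those with at least 50%. The standard error did differ, with a median of 0.19 for the first of these and 0.044 for the last. The 28 rows of ribosomal protein pseudogenes that were tested had a median of -0.054 and none called.

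The shift was then compared with the spread between libraries of the same group. Relative to the mean of each gene over the 4 libraries, the median member lay at -0.058 and -0.0036 in the S100A4-/- libraries and at 0.063 and 0.0085 in WT, on the log2 scale. For all genes tested these medians were 0.0025 and 0.0037 in S100A4-/- and 0.0023 and 0.0019 in WT. The first S100A4-/- library was thus low and the first WT library high, with the second library of each group between them. Between the first libraries of both groups, the median member differed by -0.12 and 67 of 78 members were lower in S100A4-/-, whereas between the second libraries it differed by -0.014 and 42 of 78 were lower. Between the replicates of a group, the median member differed by -0.056 in S100A4-/- (first minus second) and by 0.054 in WT, which is about as large as the difference between the groups. The same medians over all genes tested were -0.00062 and -0.0028.

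Without the first S100A4-/- library the median log2 fold change of the members was -0.032, and without the first WT library it was -0.045 over 77 members. It was -0.099 without the second S100A4-/- library and -0.086 without the second WT library. The sum of all 78 values gave the same order of libraries, with 412301 and 423020 in S100A4-/- and 443105 and 433138 in WT, a change of the mean by -4.67%. The summed values of the groups did not overlap, but the first and second libraries differed by 10719 in S100A4-/- and by 9967 in WT while the nearest libraries of the groups differed by 10118. With 2 libraries against 2, the smallest two-sided p that an exact permutation test over libraries can give is 0.333, and the summed value gave it.

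**Figure D3:**
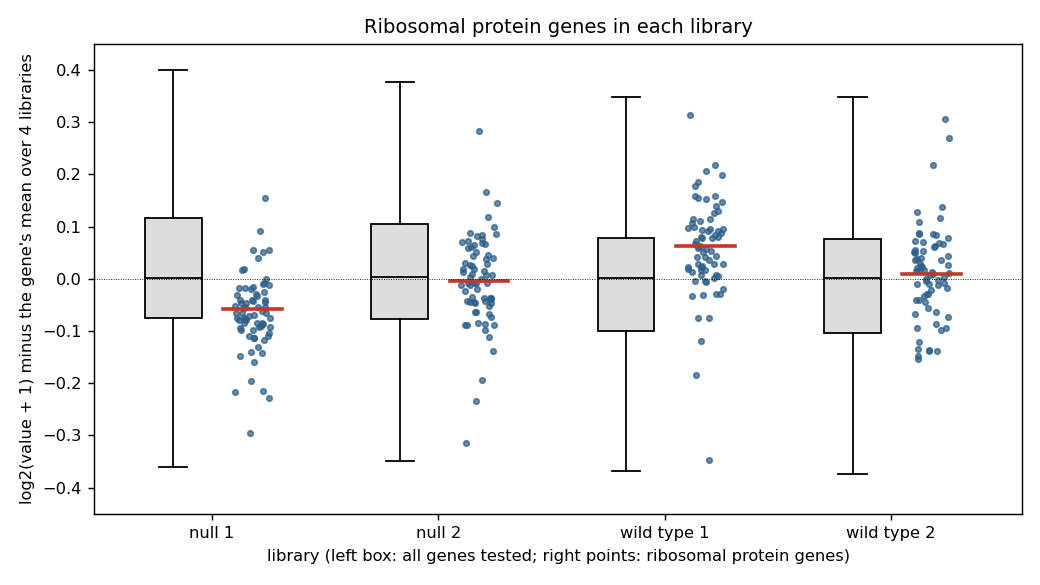
Deviation of log2(value + 1) from the mean of each gene over 4 libraries: boxes show all 14780 genes tested (median, quartiles, whiskers without outliers), points the ribosomal protein genes averaging 50 or more, and red lines the median of all 78 members. The red line is at -0.058 in the first S100A4-/- library and 0.063 in the first WT library, and at -0.0036 and 0.0085 in the second libraries.

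Most of these genes are short, and the fold change of all genes depended on length. Genes were divided into 10 bins of equal size by exonic length, and 52 of the 78 members were in the bin of the shortest genes, up to 1186 bases. Among the other genes of at most that length the median log2 fold change was -0.051, and in the 52 members it was -0.053. In the bin of the longest genes, from 7205 bases, the median was 0.036. The median was also higher at high GC content, from -0.048 in the lowest bin to 0.045 in the highest, and lower at high levels, from 0.33 in the bin of the lowest values to -0.041 in that of the highest, which holds 34 members with a median of -0.073. The dependence on length and GC content was removed in further fits, as follows, and the part of level in the values of the members was not tested.

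When a smooth dependence on exonic length was removed from every library, the median log2 fold change of the members was 0.029 and 29 of 78 lay below 0, beside a median of -0.0070 for all genes. Of the 4 called genes, Rps25 then kept a fall of 0.19 with an adjusted p of 0.0269 by limma, whereas Rps15 (-0.047), Rplp1 (-0.017) and Rpl39 (-0.086) had adjusted p-values between 0.457 and 0.882. Rps15a, another small subunit gene, was called lower in this fit (-0.15), and Rpl6 (0.20) and Rps18 (0.18) were called higher. The fit used an exonic length of 5395 bases for Rps15a, whose coding part has 390 bases. In this fit 2.95% of all genes were called lower and 6.08% higher, so that 2 of 78 members in each direction is no more than the background. With GC content and length removed together the median was 0.019, Rps25 (-0.17) had an adjusted p of 0.0559 by limma and was not called, and Rps15 (-0.14) was called lower and Rpl6, Rps18 and Rpl35a higher (0.22, 0.20 and 0.16), beside 3.88% of all genes lower and 5.91% higher. With GC content alone removed the median was -0.079 and 9 members were called lower, beside 2.25% of all genes.

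**Figure D4:**
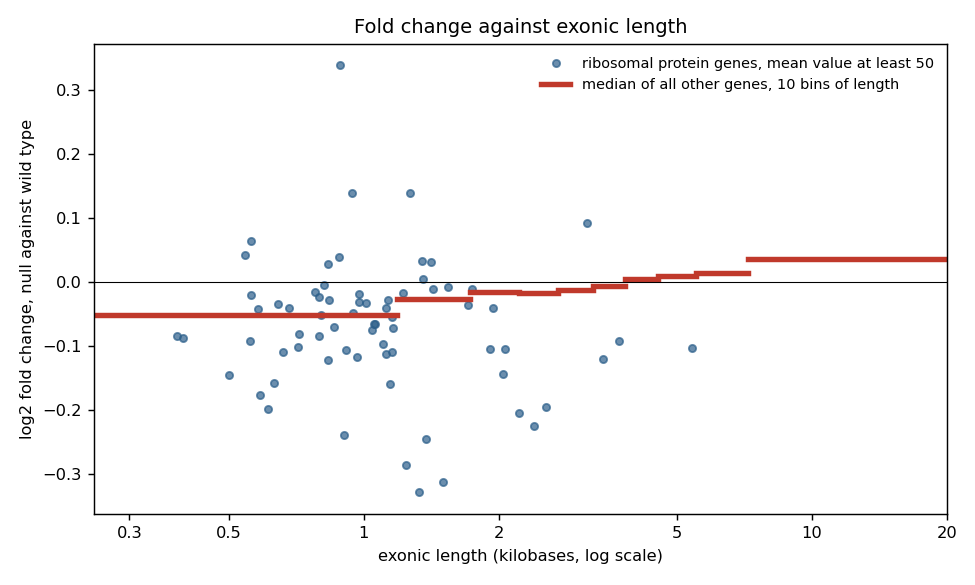
Log2 fold change against exonic length in kilobases (log scale) for the 70 ribosomal protein genes averaging 50 or more (points), with the median of all other genes in each of 10 bins of length (red lines; the first and last bin are drawn to the edge of the plot). In the bin of the shortest genes, up to 1186 bases, the other genes have a median of -0.051 and the members there a median of -0.053.

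Most ways of scaling the libraries moved members and all genes alike. With libraries scaled to equal totals, the median was -0.031 for the members and 0.023 for all genes. No member was called in that fit, beside 0.373% of all genes lower and 5.33% higher. The members' median minus that of all genes was between -0.054 and -0.055 under the size factors of the authors, TMM factors, both ways of scaling to equal totals and upper-quartile scaling, and -0.019 under quantile normalization. Of 20 alternatives, Rps25 was called in 12, Rps15 in 13, Rplp1 in 11 and Rpl39 in 10, and all 4 genes had a log2 fold change below 0 in all 20. Without the first S100A4-/- library or without the first WT library, Rps25 was the only member called, without the second S100A4-/- library Rplp1 and Rps15 were called, and without the second WT library Rpl39 and Rps21. Of all genes, 0.599%, 0.758%, 1.11% and 0.648% were called lower in these fits, in the same order. Limma without a trend of the variance, which called 0 members, called 8 genes of all kinds lower (0.0541%) and 179 higher (1.21%).

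**Figure D5:**
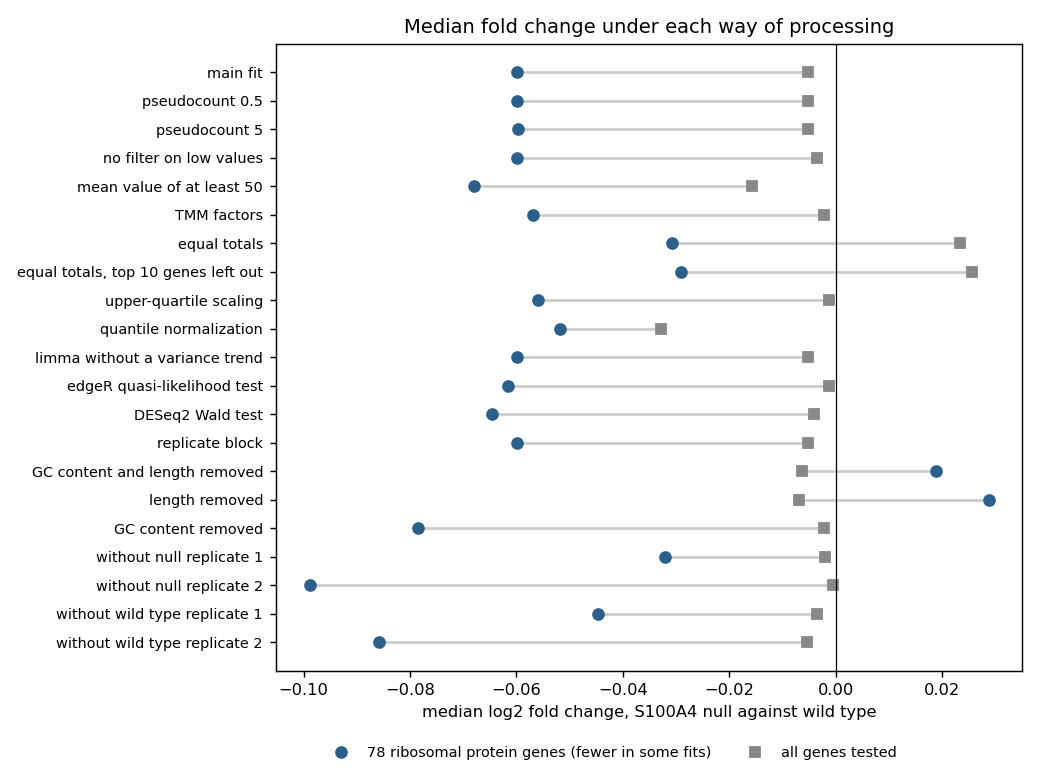
Median log2 fold change of the ribosomal protein genes (circles) and of all genes tested (squares) under each way of processing, with a line joining the pair. The circles lie to the left of the squares in all fits except the 2 in which exonic length was removed, and between -0.099 and -0.032 in the 4 fits that leave out a library.

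Relatives of ribosomal protein genes were compared in pairs. Rpl22 had values of 7861 and 7484 in S100A4-/- and 8492 and 8004 in WT, and its relative Rpl22l1 had 1022 and 937 against 1067 and 924. Their log2 fold changes were -0.10 and -0.020, neither past the threshold (adjusted p = 0.222 and 0.934 by limma). Rpl7 had -0.071 and Rpl7l1 0.093, Rps4x -0.031 and Rps4l 0.14, and Rpl36a -0.078 and Rpl36al -0.062, with adjusted p-values by limma between 0.435 and 0.942. Rpl10 had -0.24, Rpl3 0.033 and Rps27l, a relative of Rps27, -0.041, and their partners were not analysed here. Per kilobase, the WT level of Rpl22 (3994) was above that of Rpl22l1 (1775), and that of Rpl7 (11624) far above that of Rpl7l1 (291).

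The ribosomal proteins whose names lie outside the pattern did not shift in a single direction. Rack1, a scaffold on the head of the small subunit, had values of 36854 and 36334 in S100A4-/- and 36035 and 35985 in WT, a log2 fold change of 0.023. Fau, whose product is cleaved to a ubiquitin-like part and Rps30, had 0.044, and Rpl36al, a relative of Rpl36a, had -0.062. None of these passed the threshold (adjusted p between 0.771 and 0.942 by limma).

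Other genes of the translation apparatus had medians like that of the ribosomal proteins, but their summed values changed less. The sum changed by -1.99% for initiation factors, -0.27% for elongation and termination factors and 0.48% for other TOP mRNAs, beside -4.67% for the members. Among all genes averaging at least 1000, the median log2 fold change was -0.030 and 3.64% were called lower. For the 35 initiation factors the median was -0.077 on the log2 scale, with 30 below 0, 2 called lower and 0 higher, where 1.33% of all genes tested were called lower. The called genes were Eif4a2, an RNA helicase of the cap-binding complex, with a fall of 0.18 (adjusted p = 0.0244 by limma), and Eif3a, the largest subunit of eIF3, with a fall of 0.15 (adjusted p = 0.0480 by limma). Eif2s3x, a subunit of eIF2, had the lowest log2 fold change, -0.30 with an adjusted p of 0.170, and Pabpc1, the poly(A) binding protein, the highest, 0.088 with an adjusted p of 0.226, both by limma. Initiation factors are longer than ribosomal protein genes, with a median exonic length of 2554 against 993 bases.

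The 9 elongation and termination factors had a median of -0.075 with 8 below 0 and none called. Eef1g had -0.16 (adjusted p = 0.0914 by limma), Eef1e1 -0.27 and Eef2, the translocase, 0.029. Among 17 other mRNAs with a TOP tract the median was -0.072, 13 lay below 0 and 1 was called lower, beside 1.33% of all genes. It was Nap1l1, a histone chaperone, with a fall of 0.15 (adjusted p = 0.0401 by limma). Several of these, such as Pabpc1 and Eef2, belong to the lists above as well. The 6 snoRNA host genes tested of 8 had a median of 0.0069, from -0.14 for Snhg6 to 0.10 for Zfas1, with none called.

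The 76 mitochondrial ribosomal protein genes, of 78 listed, had a median of -0.068 with 55 below 0, 2 called lower and 0 higher, beside 1.33% of all genes lower. Mrpl36 fell by 0.38 (adjusted p = 0.0113 by limma) and Mrps15 by 0.27 (adjusted p = 0.0358 by limma), and Mrps33 had the highest value, 0.32 with an adjusted p of 0.387. They too are short genes, with a median exonic length of 1405 bases. The difference between the cytosolic and mitochondrial genes was not tested.

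Genes that make ribosomes or regulate them were mixed. Of 53 nucleolar biogenesis factors (54 listed), 1 was called lower, Ebna1bp2, with a fall of 0.21 (adjusted p = 0.00534 by limma), and 1 higher, Rrp1b, with a rise of 0.52 (adjusted p = 0.0254 by limma), and the median was -0.039. Of all genes, 1.33% were called lower and 5.62% higher. Fbl, the methyltransferase fibrillarin, had the lowest value of the list, -0.43, and Nle1 the highest, 0.54, neither past the threshold. The 11 RNA polymerase I genes had a median of -0.0063, between -0.17 for Polr1b and 0.17 for Taf1c, and the 7 chaperones of ribosomal proteins a median of -0.058, between -0.28 for Grwd1 and 0.077 for Aamp, with none called in either list. The 7 ribosome rescue genes tested of 8 had a median of -0.041, between -0.10 for Nemf and 0.14 for Zfp598, and none was called.

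Among the 19 genes of the TOR pathway and its partners, 2 were called higher and none lower, where 5.62% of all genes tested were called higher. Deptor, an inhibitor of mTOR, had values of 129 and 106 in S100A4-/- and 54.3 and 41.6 in WT, and rose by 1.29 on the log2 scale (adjusted p = 0.000187 by limma). The groups did not overlap. Eif4ebp1, the inhibitor of eIF4E that mTOR phosphorylates, had 568 and 572 against 419 and 438 and rose by 0.41 (adjusted p = 0.00343 by limma), and Mycl had the lowest log2 fold change, -0.20. The median of this list was 0.022. The 13 genes activated by p53, which free ribosomal proteins can stabilise by binding Mdm2, had a median of 0.018 with 2 called higher and none lower, beside the same 5.62%. Ccng1, which encodes cyclin G1, had 48040 and 45795 in S100A4-/- against 35639 and 34379 in WT and rose by 0.42 (adjusted p = 3.72e-10 by limma), and Sesn2, the stress gene sestrin 2, rose by 0.81 (adjusted p = 0.000877 by limma). Trp53inp1 had the lowest log2 fold change among the targets averaging 50 or more, the condition for naming an extreme of these lists, with -0.25.

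Markers of other cell types differed between the groups. All 12 rod markers were called higher in S100A4-/- lenses, and their summed values were 10846 and 10522 against 2508 and 2680 in WT, with Gnat1, the rod transducin gene, the most abundant. Of the inner retinal markers 5 of 6 were called higher, of the Müller glia markers 4 of 6, of the pigment cell markers 5 of 6, of the macrophage markers 3 of 6, of the endothelial markers 1 of 5 and of the red blood cell markers 1 of 5, counted over those tested. The share of all genes tested that were called higher was 5.62%. For the inner retinal markers the sums were 1882 and 1757 against 950 and 950, with Trpm1 the most abundant. The inner retinal marker that was not called higher had a log2 fold change of -0.29. Both of its S100A4-/- values lay below both WT values, with an unadjusted p under 0.05 by limma, but it was not called. The pigment cell markers, led by Dct, summed to 1241 and 1299 against 210 and 302, the Müller glia markers, led by Glul, to 6966 and 6819 against 2663 and 2918, and the macrophage markers, led by Csf1r, to 250 and 229 against 86.7 and 73.4. The endothelial markers summed to 182 and 198 against 97.1 and 137. The called marker was Kdr, with 74.5 and 60.8 against 9.40 and 9.85, and Tek, the most abundant of the others in WT, had 46.2 and 44.6 against 49.1 and 59.1. The red blood cell markers, led by Hbb-bs, summed to 294 and 259 against 169 and 98.5. Gad2, an inner retinal marker, was at 0 in the first WT library. None of the 12 fiber markers (median -0.045) and 6 epithelial markers (median -0.0042) was called. The 8 genes of dividing cells had a median of -0.27 with 7 below 0 and none called, and Aldh3a1 was the only cornea marker tested, at -0.0041. The part of any of these cells in the values of ribosomal protein genes was not tested.

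The promoters of the members were searched for short motifs, as a description. RefSeq promoters (GRCm38.p6, 250 bases before to 50 after the start) were found for 58 of the 78 members. The letters CTTTCC, part of many TOP tracts, were on the gene's strand of 39.7% of these members, of 19.4% of the 67 mitochondrial ribosomal protein genes found, of 16.8% of the 11020 genes tested that have a promoter sequence and of 16.0% of all 27025 genes that have it. CCGGAAG, a core bound by ETS family factors, was on either strand in 43.1% of the members, 35.8% of the mitochondrial genes, 18.9% of the genes tested and 9.93% of all genes. AAGATGG, a core of the YY1 motif, was found on either strand in 15.5%, 19.4%, 8.04% and 7.28%, and TATAAA on the gene's strand in 10.3%, 5.97%, 5.35% and 9.77%, in the same order. Matches of CCGGAAG can overlap those of CTTTCC and of AAGATGG by their end letters.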

How the data were processed

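Lenses of 2 S100A4-/- and 2 WT pools were compared by stranded mRNA-seq. Per the study's methods and the submitters' processing notes, Trim Galore was used by the authors for trimming, STAR for mapping (mouse, GRCm38) and HTSeq for counting reads of a single locus per gene, and they kept genes reaching 10 reads in any library; tool versions are not given in the sources used here. The deposited signal values are the gene counts that the authors normalized with DESeq2 (14924 genes, not divided by length). Divided by the worth of a single read, 100% of the values in each library came out whole within 0.05 reads, which gave the recovered reads. No column lacked a sample (0 columns). A gene with 0 reads is not detectable below a floor of 3 reads, which covers counting error only.

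Symbols, exons and transcripts came from GENCODE M21 (GRCm38), with lengths for 99.0% of genes, and promoters from RefSeq (GRCm38.p6). The study's methods name another release of the mouse annotation. Exon models, and so lengths and unique windows, can differ from those that the authors used for counting. S100A4-/- and WT were compared with limma 3.58.1 (trend of variance) on log2(value + 1). Genes reaching 10 in any library were tested (14780, with 144 left out), with Benjamini-Hochberg adjustment over all tested; fold changes of low genes are understated on this scale. A gene was called at an adjusted p of at most 0.05. Alternatives were pseudocounts of 0.5 and 5, other filters and scalings, edgeR 4.0.16 and DESeq2 1.42.0 on the recovered reads, a replicate block, removal of GC content and length by smooth terms, subsets of members, and each library left out; removal of length or of GC content alone and subsets by unique coding windows or by a mean value of at least 1000 were added after seeing the data. Where a library was left out, the lone library of its group was assumed to vary like the others. R 4.3.3, Python 3.11.15, pandas 2.3.3 and matplotlib 3.10.9 were used. The limma, edgeR and DESeq2 fits were tested on simulated data, in which the shift of the members was larger than the one seen here. Whether a shift as small as that is recovered was not tested. Fits that remove length or GC content used the 14645 genes with both values.

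Members named are the 5 highest and 5 lowest per kilobase in WT, the 8 largest rises and 8 largest falls with a mean value of at least 100, the 8 with the smallest adjusted p, and paralog pairs; of each related list, the extremes and calls with a mean value of at least 50. Rpl41, Rpl21, Rplp0, Rplp2 and members called in other fits (Rpl35a, Rps15a and Rps21) are named beside this rule, after their values were seen. Some genes that this rule gives are not reported here. The members and lists were chosen with earlier results of these data known, so no count here is independent support.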

Additional observations from a re-analysis of the deposited data

How the results depend on the processing

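The median log2 fold change of the ribosomal protein genes, -0.060, had the opposite sign when GC content and length were removed (0.019) or length alone was removed (0.029), and it stayed below 0 under the other 18 fits, with a range of -0.099 to -0.032 when a library was left out; removal takes out the trend of fold change with length that all genes show. It was -0.088 over the 12 members with at least 80% unique transcript windows, -0.084 over the 13 with at least 50% unique coding windows and -0.069 as the log2 ratio of summed values. The coding part of these 12 was not always unique. The share of unique coding windows was 91.9% for Rps3 and 91.3% for Rpl8 but 13.5% for Rpl39 and 15.8% for Rps15a, and Rps4l has no coding part. The number of members called lower, 4, was 0 with equal totals, with equal totals without the 10 genes with the most reads and with limma without a variance trend, 1 with quantile normalization, with GC content and length removed and among members with at least 80% unique windows, 2 with DESeq2 and with length removed, 9 with GC content removed, and 1 to 2 when a library was left out. With equal totals without the 10 genes with the most reads, 0.683% of all genes were called lower and 5.79% higher. With quantile normalization these shares were 1.04% and 4.18%. The number of members called higher, 0, was 3 with GC content and length removed and 2 with length removed. The causes of these changes, that of the sign of the median included, were not tested. The pairs of libraries that share a replicate number share only that number: the correlation of first minus second libraries between groups was 0.012 over all genes tested and 0.50 over the members, which is too few pairs to show that they were processed together. The replicate block called 5 members lower, with Rps3 added, beside 2.35% of all genes lower and 6.64% higher. Without the block, 1.33% of all genes were called lower.

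Members below 0 were 61 of 78, 37 with GC content and length removed and 29 with length removed. Values that changed sign are given only for genes named above. With GC content and length removed these were Rpl22l1 0.17, Rpl35a 0.16, Rps21 0.083, Snhg6 0.017, Eef2 -0.029, Rps27l 0.15, Rpl36a 0.093, Rps4x 0.087, Rpl4 0.080, Rpl7 0.058 and Rpl36al 0.017. With length removed they were Rpl22l1 0.099, Rpl35a 0.088, Rps21 0.059, Rpl41 0.020, Rplp2 0.010, Rps27l 0.076, Rpl36a 0.052, Rps4x 0.049, Rpl4 0.043 and Rpl8 0.00050. With GC content removed they were Rpl35a 0.027, Rplp0 -0.0095, Eef2 -0.025, Rpl22l1 0.012, Rpl4 0.014, Fau -0.029, Rpl38 -0.025 and Rpl27 -0.0015. With quantile normalization they were Rpl35a 0.027, Rpl4 0.036, Rps4x 0.0016, Fau -0.079, Rpl27 -0.057, Rpl38 -0.056, Rpl9 -0.016 and Rps29 -0.37. Rps29 was at -0.19 with edgeR and -0.20 with DESeq2. Rpl22l1, Rpl4 and Rpl35a were at 0.0086, 0.021 and 0.024 with equal totals, and at 0.010, 0.023 and 0.026 without the 10 genes with the most reads. With a library left out, the ranges that crossed 0 were those of Eef2 (-0.023 to 0.080), Nemf (-0.23 to 0.031), Rpl35a (-0.067 to 0.058), Rplp0 (-0.018 to 0.028), Rps21 (-0.20 to 0.030), Trp53inp1 (-0.51 to 0.0034), Zfas1 (-0.0042 to 0.21), Fau (-0.18 to 0.27), Rpl22l1 (-0.12 to 0.083), Rpl27 (-0.29 to 0.37), Rpl3 (-0.037 to 0.10), Rpl36a (-0.47 to 0.31), Rpl38 (-0.090 to 0.18), Rps13 (-1.76 to 0.73), Rps18 (-0.022 to 0.15), Rps23 (-0.48 to 1.10), Rps27l (-0.15 to 0.068), Rps29 (-0.92 to 0.44) and Rps4x (-0.099 to 0.036).

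Scaling moved the medians of related lists. With equal totals they were -0.048 for initiation, -0.046 for elongation, -0.043 for other TOP mRNAs, -0.010 for biogenesis, 0.023 for RNA polymerase I, 0.051 for the TOR list, 0.047 for p53 targets and -0.039 for mitochondrial ribosomal proteins. Without the 10 genes with the most reads they were -0.046, -0.044, -0.041, -0.0086, 0.025, 0.053, 0.049 and -0.037, in the same order. With quantile normalization they were -0.044, -0.026, -0.026, -0.057, -0.051, 0.016 and 0.031 for the first 7, and -0.070 for ribosomal proteins outside the name pattern. TMM and upper-quartile scaling moved no list by more than its spread between libraries. With 2 libraries a group, the shift of the members is about as large as the difference between pools of the same group.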
